A study of Homo sapiens with 12 samples.

Results

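Of the genes that androgen is known to induce in prostate cells, 35 that lie outside the kallikrein family were followed across 3 related prostate cancer cell lines. They were listed by gene symbol as known androgen-regulated genes, and the list was drawn up with earlier results of these data known. All 35 were found among the 57992 entries of the gene count table, and all 35 passed the filter on low counts that left 15407 genes for testing. The study set enzalutamide-sensitive against enzalutamide-resistant cells, enzalutamide being an antagonist of the androgen receptor. LNCaP is an androgen-responsive line derived from a lymph node metastasis of prostate carcinoma and is labelled sensitive. MR49F, labelled resistant, is a derivative of LNCaP selected in the presence of enzalutamide. C4-2, labelled sensitive, is a subline of LNCaP recovered from a tumour grown in a castrated mouse. Each line was sequenced as 3 biological replicates of whole-cell RNA. The labels give no drug, hormone or serum condition for the cultures. Each group is 1 line, so resistance and any other difference between the lines cannot be told apart. A further resistant line, C4-2R, was not analysed here.

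The androgen receptor is a nuclear receptor that moves to the nucleus once it binds androgen, where it occupies DNA elements built of paired half-sites and recruits coactivators to its target genes. Luminal cells of the prostate depend on this receptor for their secretory programme, and the induced genes include proteases, lipid and sugar enzymes, ion and solute carriers, and regulators that feed back on the receptor or on growth factor signals. Antagonists such as enzalutamide compete with androgen for the receptor, and the level of the induced genes is widely used as a readout of receptor output.

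Total counts ranged from 6990461 to 9375912 in 8 of the 9 libraries, and C4-2 replicate 1 held 42770072. The 7 luminal epithelial markers, among them KRT8, KRT18, EPCAM, HOXB13, KLK3 and CDH1, were each above 1 CPM (a count scaled to library size) in every line, and the sum of the 7 ranged from 4710 to 4922 CPM in LNCaP, 6298 to 6573 in MR49F and 6304 to 7250 in C4-2. Summed markers of other cell types were far lower. Those of 5 basal genes, nearly all of it DST, were 19.4 to 21.2, 20.7 to 22.7 and 36.9 to 49.5 CPM in the same order, with KRT5 at 0 throughout, and those of 8 fibroblast and endothelial genes were 29.3 to 33.1, 7.72 to 9.14 and 23.4 to 28.3, with COL1A2 and CDH5 at 0. Those of 7 immune genes were 0.276 to 0.682, 1.38 to 2.14 and 3.80 to 5.15, with CD3E at 0, and those of 7 neuroendocrine genes 31.0 to 34.1, 28.5 to 33.0 and 10.2 to 12.8, with INSM1 at 0. By mean, KLK3 gave most of the luminal sum (2697, 3435 and 4423 CPM in the same order). Most of the fibroblast and endothelial sum was COL1A1 (25.4, 5.72 and 16.5), and most of the neuroendocrine sum was ENO2 (29.5, 25.7 and 7.51). CD8A led the immune genes in MR49F and C4-2, at 1.27 and 3.36 CPM, and was at 0.157 in LNCaP. The part of other cell types in the results was not tested.

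Promoter sequence was read for the members from RefSeq (GRCh38.p14), in windows of 300 bases around annotated starts, since a receptor half-site near the start is one feature that members of such a programme could share. Windows were found for 25 of the 35 genes, and none was matched for TMPRSS2, ADAM7, NDRG1, PLPP1, SORD, ZBTB10, ZBTB16, ELL2, MED28 or TPD52. The half-site AGAACA, read on both strands (reverse complement TGTTCT), occurred in a window of 5 of the 25 members, which are FKBP5, LIFR, PMEPA1, SGK1 and TRPM8. By comparison, 17.5% of the 27305 genes in the table held it in a window, but the members have more windows per gene. Counted by window, 6 of the members' 49 held it (12.2%), against 14.8% of all 35116, so by this count it was not more frequent among them. The members' windows had a higher median GC content (64.3% against 58.7% of all windows), for which neither count was adjusted. The full palindrome, AGAACA then any 3 bases then TGTTCT, was in none of the members' windows and in 1 of the 27305 genes. The half-site was in 1 of 2 windows of FKBP5, 2 of 4 of PMEPA1 and 1 of 6 of TRPM8. For these 3 members the first window that held it is shown 5′ to 3′ on the gene's strand, with the half-site in capitals. FKBP5 (chr6:35728534-35728833, minus strand) and PMEPA1 (chr20:57711423-57711722, minus strand) were highest in MR49F. TRPM8 (chr2:233979899-233980198, plus strand) was highest in C4-2, and its window lies inside the gene, which starts at 233917398.
FKBP5: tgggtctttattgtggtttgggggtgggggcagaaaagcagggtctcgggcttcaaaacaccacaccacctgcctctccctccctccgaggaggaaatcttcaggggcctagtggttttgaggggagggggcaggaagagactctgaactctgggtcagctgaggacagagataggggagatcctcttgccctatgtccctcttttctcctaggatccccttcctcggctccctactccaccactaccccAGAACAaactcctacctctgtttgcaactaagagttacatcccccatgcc
PMEPA1: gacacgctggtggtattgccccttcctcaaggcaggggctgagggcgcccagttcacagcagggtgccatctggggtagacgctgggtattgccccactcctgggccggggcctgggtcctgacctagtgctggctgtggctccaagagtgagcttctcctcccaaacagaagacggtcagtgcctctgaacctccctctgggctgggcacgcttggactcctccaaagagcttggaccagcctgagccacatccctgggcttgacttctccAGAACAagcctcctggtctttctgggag
TRPM8: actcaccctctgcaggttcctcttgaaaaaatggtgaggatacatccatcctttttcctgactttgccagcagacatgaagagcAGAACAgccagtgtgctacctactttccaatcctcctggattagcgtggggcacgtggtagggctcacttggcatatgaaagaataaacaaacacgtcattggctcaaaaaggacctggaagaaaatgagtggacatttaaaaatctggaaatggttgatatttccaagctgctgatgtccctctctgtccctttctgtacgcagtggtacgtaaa
A match of letters is a description of the window and not evidence of receptor binding.

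In MR49F the members as a group stood above LNCaP, with TMPRSS2, SGK1, PMEPA1, PTGER4 and EAF2 showing the largest rises. The counts of all 35 together made up 4906, 4866 and 4821 CPM in the LNCaP libraries, 8636, 8774 and 8996 CPM in the MR49F libraries, and 5834, 5842 and 5812 CPM in the C4-2 libraries. The means were 4864 ± 42.8, 8802 ± 182 and 5829 ± 15.8 CPM (SD, n = 3 each), and the MR49F libraries lay well above the rest. The C4-2 excess over LNCaP of 965 CPM is a balance of rises and falls, in which PLPP1 (682) and TRPM8 (298) were the largest rises. Without these 2 genes, a choice made after the values were seen, the means were 4618 ± 53.4 in LNCaP, 8626 ± 190.2 in MR49F and 4603 ± 128 in C4-2 (SD, n = 3 each), and the LNCaP and C4-2 libraries overlapped. Leaving out the largest rises lowers C4-2 by construction, and no gene that fell in C4-2 was left out, so these sums are a description. Because RNA was pooled over each culture, more cells expressing a gene and more RNA per cell cannot be told apart.

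Against LNCaP, 26 members were higher in MR49F, 5 were lower and 4 did not pass (edgeR quasi-likelihood test, with adjusted p under 0.05 by Benjamini-Hochberg across the 15407 genes). That is 74.3% of members higher and 14.3% lower, where 24.1% and 22.8% of all tested genes were called in these directions and 47.0% in either. Among them, 14 rose and 2 fell by more than 2-fold, against 5.65% and 7.53% of tested genes. The MR49F and LNCaP libraries did not overlap for 32 members, as for 59.8% of tested genes. The members' median log2 fold change was 0.66, and that of all tested genes was 0.0084.

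C4-2 differed from LNCaP in both directions. Of the 35, 17 were higher, 8 were lower and 10 did not pass. The shares were 48.6% and 22.9%, set against 26.2% and 23.5% of tested genes (49.7% in either direction), so that the share of members lower is close to the background. More than 2-fold changes were 7 rises and 3 falls (9.12% and 4.08% of tested genes), and 26 members had libraries that did not overlap (55.7% of tested genes). The median log2 fold change was 0.19, against −0.0012 over all tested genes.

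Both comparisons use the same LNCaP libraries, so the derivatives were compared directly. In MR49F against C4-2, 23 members were higher in MR49F, 6 were lower and 6 did not pass, which is 65.7% and 17.1% of members beside 29.9% and 31.1% of tested genes (61.0% in either direction). Changes beyond 2-fold were 14 higher and 5 lower (6.46% and 12.1% of tested genes). The libraries of 30 members did not overlap (61.9% of tested genes), and the median was 0.65 against −0.0014. Thus the direct difference between the derivatives was mostly towards higher levels in MR49F, while TRPM8, GNMT, PLPP1, STEAP4, NDRG1 and TPD52 were lower there. The counts by role that follow rest on 2 to 9 genes each and are a description. They stand beside the shares of all tested genes: 24.1% higher and 22.8% lower in MR49F against LNCaP, and 26.2% and 23.5% in C4-2 against LNCaP. For MR49F against C4-2 the shares are the 29.9% and 31.1% above.

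**Figure D1:**
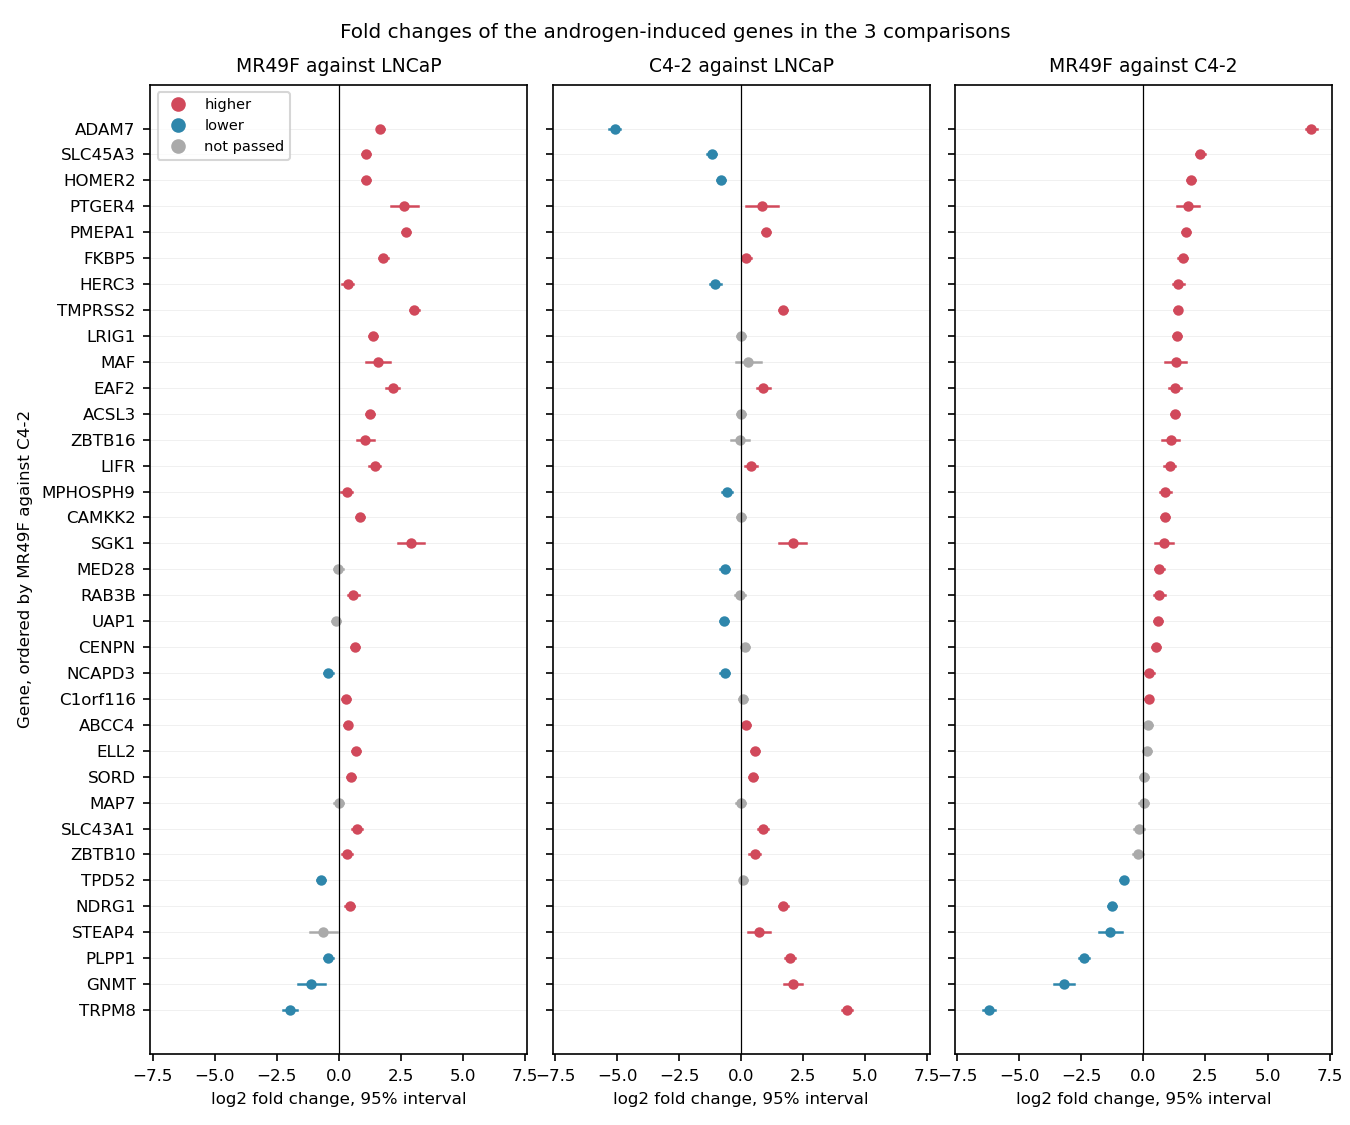
Log2 fold change of each of the 35 genes in the 3 comparisons, with 95% intervals, ordered by MR49F against C4-2; red marks genes called higher, blue genes called lower and grey those that did not pass. In the direct comparison 23 genes are called higher in MR49F and 6 lower, with ADAM7 and TRPM8 at the extremes.

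Both genes listed under the protease role rose in MR49F, and in C4-2 they moved in opposite directions. TMPRSS2 (ENSG00000184012, chr21:41464551-41531116, GENCODE 29 on GRCh38) encodes a membrane serine protease whose promoter is fused to ETS genes in many prostate tumours. Its level was 68.8, 74.9 and 71.3 CPM in LNCaP, 592, 617 and 572 in MR49F, and 236, 218 and 232 in C4-2. The lines did not overlap, and MR49F was highest in each of its libraries. The log2 fold change was 3.05 (SE 0.0800, adjusted p = 2.22e-17) in MR49F and 1.67 (SE 0.0777, adjusted p = 3.30e-13) in C4-2, and MR49F exceeded C4-2 by 1.38 (SE 0.0735, adjusted p = 1.61e-12). ADAM7 (ENSG00000069206, chr8:24440930-24526970), a member of the ADAM family known from the epididymis, read 125, 117 and 119.5 CPM in LNCaP and 396, 362 and 403 in MR49F. In C4-2 it read 3.63, 3.16 and 3.58 CPM. It therefore rose in MR49F (log2 fold change 1.68, SE 0.0771, adjusted p = 2.22e-13) and fell in C4-2 (−5.09, SE 0.109, adjusted p = 1.47e-18). The direct difference between the derivatives was 109-fold (log2 6.77, SE 0.109, adjusted p = 7.58e-21), and no library of one line reached those of another.

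**Figure D2:**
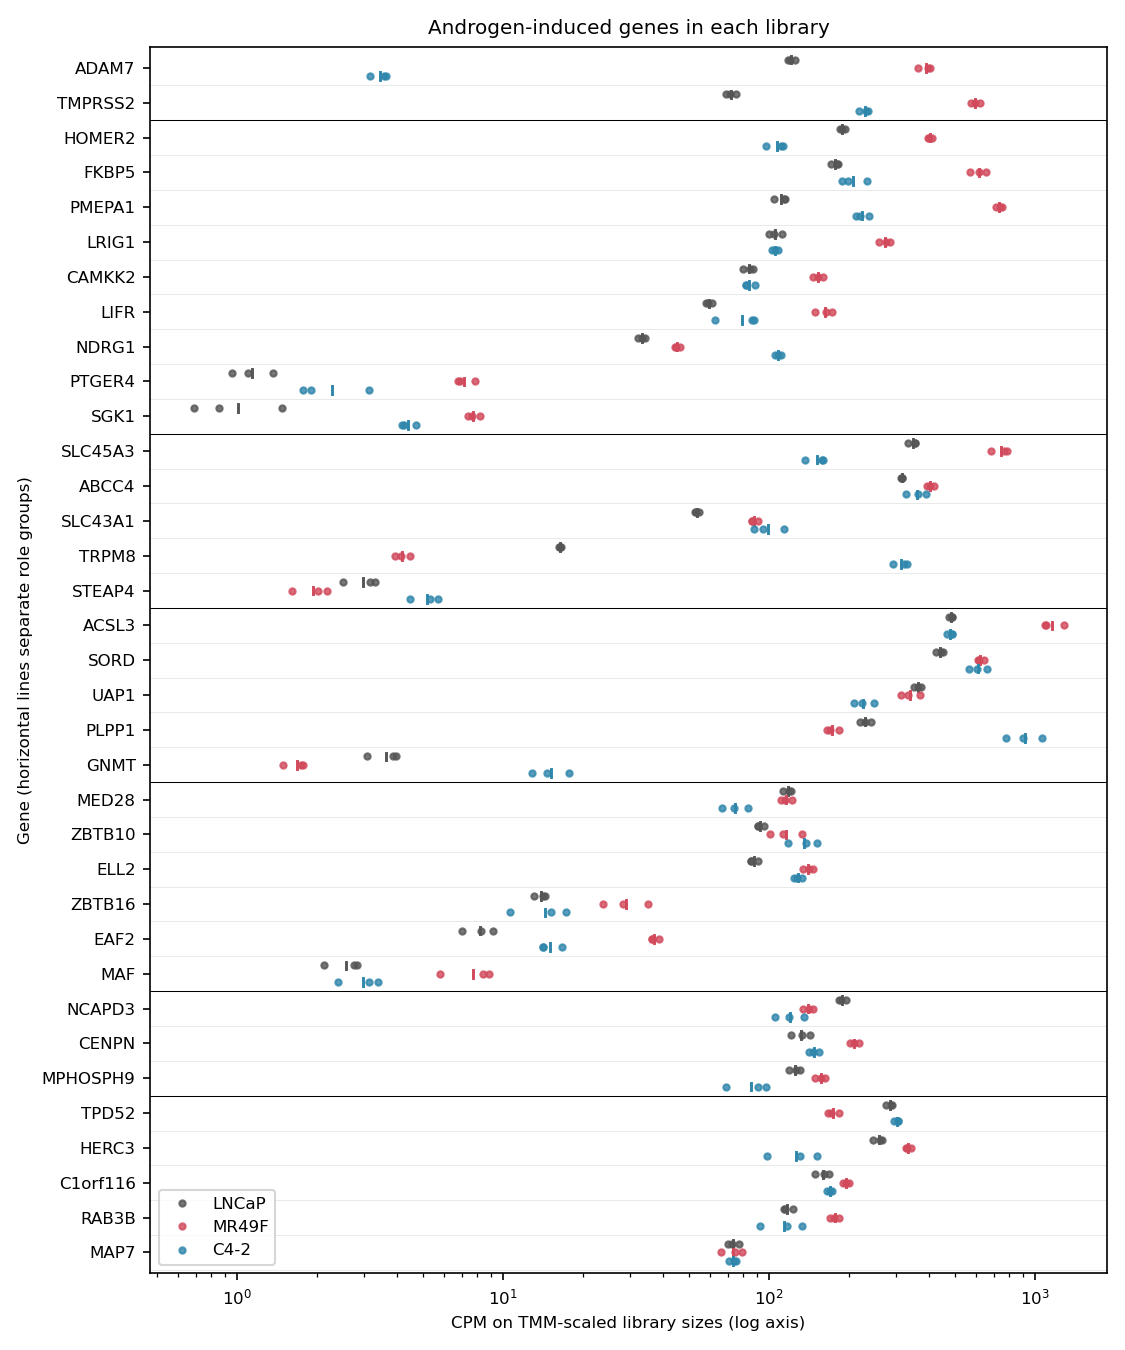
CPM of each of the 35 genes in every library, on a log axis and grouped by role, with a bar at each line's mean. ADAM7 and TRPM8 show the widest separation between lines, and MAP7 nearly equal means, at 73.3, 73.1 and 73.0 CPM.

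Signalling, receptor and feedback genes all rose in MR49F, 9 of 9 against LNCaP, with a median log2 fold change of 1.45. In C4-2, 6 rose, 1 fell and 2 did not pass, with a median of 0.39, and in MR49F against C4-2 8 were higher and 1 lower (median 1.37). PMEPA1 (ENSG00000124225, chr20:57648392-57711536), a membrane protein that restrains TGF-beta signalling and promotes turnover of the androgen receptor, read 115, 114 and 104 CPM in LNCaP, 713, 747 and 739 in MR49F, and 238, 213 and 220.3 in C4-2. No libraries of different lines overlapped. It rose by 2.72 on the log2 scale in MR49F (SE 0.0794, adjusted p = 1.19e-16) and by 1.01 in C4-2 (SE 0.0768, adjusted p = 8.45e-10), a direct difference of 1.71 (SE 0.0755, adjusted p = 7.15e-14). FKBP5, a co-chaperone of steroid receptors, followed the same order, at 177 ± 6.11, 613 ± 42.2 and 206 ± 24.0 CPM (SD, n = 3) in LNCaP, MR49F and C4-2. Its rise in MR49F was 1.79 (adjusted p = 6.55e-13) and the excess over C4-2 was 1.57 (adjusted p = 2.62e-12). The small rise in C4-2 (0.21, adjusted p = 0.0446) was lost in DESeq2 (adjusted p = 0.0706), in limma voom (0.0603), in the fit of 6 libraries (0.0618) and without any single library except C4-2 replicate 1 and MR49F replicate 3 (0.0510 to 0.247), with a value of 0.11 without C4-2 replicate 2. Alternatives named beside single genes leave aside the test against a 1.5-fold change, which asks for a larger change.

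SGK1 and PTGER4 were low in every line. SGK1 (ENSG00000118515, chr6:134169246-134318112), a serum- and steroid-inducible kinase, read 0.854, 1.48 and 0.689 CPM in LNCaP, 7.66, 7.36 and 8.18 in MR49F, and 4.25, 4.18 and 4.72 in C4-2, from 26, 203 and 243 counts per line. Its libraries did not overlap between lines. The log2 fold change was 2.91 (SE 0.246, adjusted p = 4.61e-09) in MR49F and 2.07 (SE 0.258, adjusted p = 1.15e-06) in C4-2, and the direct difference was 0.83 (SE 0.174, adjusted p = 3.16e-04). PTGER4 (ENSG00000171522, chr5:40679498-40693735), a receptor for prostaglandin E2 that signals through cyclic AMP, read 0.961, 1.36 and 1.10 CPM in LNCaP, 6.89, 6.77 and 7.84 in MR49F, and 1.78, 1.90 and 3.15 in C4-2, from 29, 188 and 111 counts. Here MR49F stood clear of both other lines, while C4-2 was only just above LNCaP. The gene rose by 2.64 in MR49F (SE 0.263, adjusted p = 5.55e-08), with a direct excess over C4-2 of 1.80 (SE 0.213, adjusted p = 3.66e-07). The rise of 0.84 in C4-2 (SE 0.304, adjusted p = 0.0266) was lost in DESeq2 (0.0659), in voom (0.0579), and without LNCaP replicate 1 (0.111), LNCaP replicate 3 (0.0638) or C4-2 replicate 3 (0.0708).

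Within the same role, NDRG1 and HOMER2 departed from the order MR49F, C4-2, LNCaP. NDRG1 (ENSG00000104419, chr8:133237171-133302022), a stress- and hypoxia-responsive gene with metastasis suppressor activity, read 32.1, 34.2 and 33.2 CPM in LNCaP, 44.5, 46.4 and 44.4 in MR49F, and 105, 110.5 and 108 in C4-2. The highest line was C4-2, with no overlap between lines. Its log2 fold change was 0.44 in MR49F (SE 0.0870, adjusted p = 2.85e-04), 1.70 in C4-2 (SE 0.0833, adjusted p = 7.72e-13) and −1.26 in the direct comparison (SE 0.0807, adjusted p = 3.18e-11). HOMER2 (ENSG00000103942, chr15:82836946-82986153), a scaffold of receptor and calcium signalling complexes, read 188, 185 and 193 CPM in LNCaP, 394, 400.2 and 409 in MR49F, and 97.7, 111 and 112 in C4-2. It rose in MR49F (1.09, SE 0.0759, adjusted p = 2.05e-10) and fell in C4-2 (−0.82, SE 0.0773, adjusted p = 2.06e-08). The direct difference was 1.91 (SE 0.0780, adjusted p = 1.84e-14).

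LRIG1, CAMKK2 and LIFR completed this role. LRIG1, a restraint on receptor tyrosine kinases, was at 105 ± 5.96, 273 ± 12.8 and 106 ± 2.76 CPM in LNCaP, MR49F and C4-2 (SD, n = 3), and CAMKK2, a calcium-dependent kinase upstream of AMPK, at 83.9 ± 3.80, 153 ± 6.52 and 84.1 ± 3.85. Both rose in MR49F, by 1.38 and 0.87. In C4-2 neither passed, and the interval of LRIG1 ran from −0.16 to 0.17 about a value of 0.01 (adjusted p = 0.954). LIFR, a receptor subunit for leukaemia inhibitory factor, rose from 59.3 ± 1.37 to 162 ± 12.1 CPM in MR49F (1.45, adjusted p = 7.00e-10) and to 79.0 ± 14.0 in C4-2 (0.39, adjusted p = 0.00568), a direct difference of 1.06 (adjusted p = 3.29e-08).

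**Figure D3:**
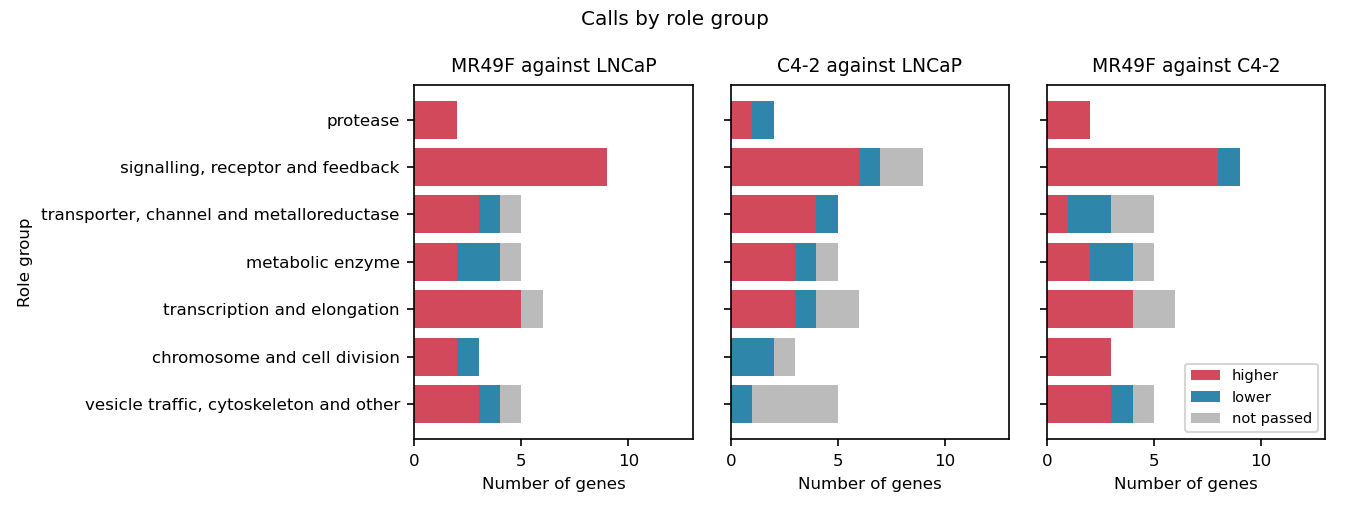
Number of members in each role called higher, called lower or not passed in the 3 comparisons, as stacked bars. All 9 signalling genes are called higher in MR49F against LNCaP, and the transporters and metabolic enzymes are split in MR49F against C4-2.

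Transporters and channels were split between the derivatives. In MR49F 3 of 5 rose and 1 fell, in C4-2 4 rose and 1 fell, and in the direct comparison 1 was higher in MR49F and 2 lower. SLC45A3 (ENSG00000158715, chr1:205657851-205680459), known as prostein and a prostate-restricted solute carrier, read 332, 353 and 354 CPM in LNCaP, 760.0, 783 and 682 in MR49F, and 159, 137 and 158 in C4-2. No libraries overlapped, and the direction was opposite in the derivatives. It rose by 1.10 in MR49F (SE 0.0805, adjusted p = 4.55e-10) and fell by 1.19 in C4-2 (SE 0.0820, adjusted p = 1.68e-10), a direct difference of 2.29 (SE 0.0838, adjusted p = 3.11e-15). TRPM8 (ENSG00000144481, chr2:233917398-234019522), the cold- and menthol-sensing cation channel, read 16.2, 16.5 and 16.4 CPM in LNCaP, 4.49, 3.92 and 4.15 in MR49F, and 293, 329 and 321 in C4-2. Its order was the reverse of SLC45A3. TRPM8 fell in MR49F (−1.96, SE 0.133, adjusted p = 1.35e-10), rose 19.2-fold in C4-2 (4.26, SE 0.0927, adjusted p = 1.47e-18), and was 74.7-fold lower in MR49F than in C4-2 (−6.22, SE 0.111, adjusted p = 2.47e-20).

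The other members of this role moved less. SLC43A1, an amino acid transporter, rose from 53.4 ± 1.13 CPM to 87.8 ± 2.49 in MR49F (0.72, adjusted p = 3.14e-06) and to 98.6 ± 13.5 in C4-2 (0.90, adjusted p = 1.15e-07). The derivatives were not separated (−0.18, 95% interval −0.37 to 0.01, adjusted p = 0.0956), although the difference passed without C4-2 replicate 2 (adjusted p = 0.0109). ABCC4, an exporter of cyclic nucleotides and drugs, was at 315 ± 0.917, 403 ± 11.9 and 359 ± 31.8 CPM and rose by 0.35 in MR49F (adjusted p = 7.30e-04). Its rise of 0.19 in C4-2 (adjusted p = 0.0475) was lost in 7 alternative settings, among them the fit with a replicate block (0.0517), and without any single library except the same 2 (0.0642 to 0.211). Its direct difference of 0.17 (adjusted p = 0.0651) passed in voom (0.0414) and without C4-2 replicate 3 (0.0262). STEAP4, a metalloreductase, was at 2.99 ± 0.434, 1.94 ± 0.295 and 5.17 ± 0.641 CPM. It was higher in C4-2 (0.73, adjusted p = 0.00605), lower in MR49F than in C4-2 (−1.35, adjusted p = 2.57e-05), and its value in MR49F against LNCaP (−0.62, adjusted p = 0.0537) passed in 6 alternatives (adjusted p 0.0388 to 0.0494), among them those without C4-2 replicate 1, C4-2 replicate 2 or LNCaP replicate 2.

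Among the metabolic enzymes, 2 rose and 2 fell in MR49F against LNCaP, 3 rose and 1 fell in C4-2, and 2 were higher and 2 lower in the direct comparison. PLPP1 (ENSG00000067113, chr5:55424854-55535050), a phosphatase of lipid phosphates, read 219.9, 229 and 241 CPM in LNCaP, 183, 169 and 165 in MR49F, and 1059, 778 and 898 in C4-2. Every C4-2 library was far above the other lines, and MR49F was below LNCaP without overlap. It fell by 0.42 in MR49F (SE 0.0951, adjusted p = 0.00117) and rose by 1.99 in C4-2 (SE 0.0959, adjusted p = 6.11e-13), and the direct difference was −2.41 (SE 0.0976, adjusted p = 1.72e-14). Of its exon bases, 28.4% overlap other genes, and the strand setting of the counting is not given in the sources used here, so its level is uncertain. GNMT (ENSG00000124713, chr6:42960758-42963880), which methylates glycine with S-adenosylmethionine, read 3.10, 3.98 and 3.86 CPM in LNCaP, 1.75, 1.78 and 1.498 in MR49F, and 17.7, 14.7 and 12.9 in C4-2. It showed the same order as PLPP1 at a much lower level. It fell by 1.11 in MR49F (SE 0.257, adjusted p = 0.00138), rose by 2.10 in C4-2 (SE 0.173, adjusted p = 2.91e-09) and differed by −3.21 between the derivatives (SE 0.198, adjusted p = 1.83e-11).

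ACSL3, which activates long-chain fatty acids, read 488, 473 and 489 CPM in LNCaP, 1088, 1096 and 1277 in MR49F, and 466, 487 and 486 in C4-2. It was higher in every MR49F library, by 1.26 over LNCaP (adjusted p = 2.56e-11) and 1.27 over C4-2 (adjusted p = 1.35e-11), while C4-2 and LNCaP were not separated (−0.01, adjusted p = 0.922). SORD, which oxidises sorbitol to fructose, rose in both derivatives, from 439 ± 13.9 to 622 ± 16.7 CPM in MR49F (0.50, adjusted p = 1.27e-05) and 608 ± 47.8 in C4-2 (0.47, adjusted p = 2.63e-05), with a direct difference of 0.03 (interval −0.12 to 0.19). UAP1, of the hexosamine pathway, fell in C4-2, from 363 ± 11.1 to 226 ± 19.4 CPM (−0.68, adjusted p = 7.32e-07). In MR49F it was 337 ± 28.0 CPM (−0.11, adjusted p = 0.308).

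Transcription and elongation genes mostly rose in MR49F. Against LNCaP 5 of 6 rose there and none fell (24.1% and 22.8% of tested genes), with a median of 0.87. In C4-2 3 rose and 1 fell (26.2% and 23.5% of tested genes), with a median of 0.42. Of the 6, 4 were higher in MR49F than in C4-2 and none was lower (29.9% and 31.1% of tested genes). EAF2 (ENSG00000145088, chr3:121835183-121886526), a partner of the ELL elongation factors, read 9.19, 8.29 and 7.03 CPM in LNCaP, 36.2, 36.5 and 38.6 in MR49F, and 16.7, 14.2 and 14.2 in C4-2. The 3 lines were separated, with MR49F highest. It rose by 2.17 in MR49F (SE 0.127, adjusted p = 1.21e-11) and by 0.90 in C4-2 (SE 0.133, adjusted p = 1.10e-05), and differed by 1.27 between the derivatives (SE 0.112, adjusted p = 4.56e-09).

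ELL2, an elongation factor of RNA polymerase II, rose from 87.5 ± 3.29 to 140.2 ± 5.84 CPM in MR49F (0.68) and 128 ± 4.56 in C4-2 (0.55), and the derivatives were not separated (0.13, interval −0.03 to 0.29). MAF, a basic leucine zipper factor, was at 2.58 ± 0.385, 7.70 ± 1.66 and 2.98 ± 0.512 CPM, and ZBTB16, a zinc-finger repressor also known as PLZF, at 13.9 ± 0.657, 29.1 ± 5.62 and 14.3 ± 3.36. Both rose in MR49F (1.58, adjusted p = 7.41e-06, and 1.07, adjusted p = 2.01e-05) and neither passed in C4-2. The zinc-finger gene ZBTB10 was at 92.2 ± 2.81, 115.7 ± 16.0 and 136 ± 16.8 CPM. Its rise in MR49F (0.33, adjusted p = 0.0133) was lost without LNCaP replicate 2 (0.0564), LNCaP replicate 3 (0.0545) or MR49F replicate 3 (0.113), and its direct difference (−0.22, adjusted p = 0.0603) passed in 5 alternatives, among them without C4-2 replicate 1 (adjusted p = 0.00117) and without MR49F replicate 3 (0.00891). MED28, a subunit of the Mediator complex, fell in C4-2 from 118 ± 3.996 to 74.6 ± 8.60 CPM (−0.67, adjusted p = 2.65e-06) and was at 115.9 ± 5.22 CPM in MR49F (−0.02, adjusted p = 0.856). Its exons overlap other genes over 32.1% of their bases.

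The 3 chromosome and cell division genes were all higher in MR49F than in C4-2. CENPN, a centromere protein, was at 132 ± 10.8, 209 ± 7.65 and 147 ± 6.39 CPM and rose in MR49F (0.66, adjusted p = 8.07e-07), with 22.8% of its exon bases shared with other genes. MPHOSPH9, a centrosomal phosphoprotein, was at 125 ± 5.87, 156 ± 6.79 and 85.6 ± 14.7 CPM. It fell in C4-2 (−0.57, adjusted p = 1.14e-04), and its rise in MR49F (0.32, adjusted p = 0.0137) was lost without LNCaP replicate 2 (0.0769) or MR49F replicate 1 (0.0519). NCAPD3, a condensin II subunit, fell in both derivatives, from 188 ± 5.86 to 140.2 ± 5.91 and 119.9 ± 14.9 CPM (−0.42 and −0.66). Its direct difference (0.23, adjusted p = 0.0263) was lost in 6 alternatives (adjusted p 0.0610 to 0.100), among them those without C4-2 replicate 1 or 3 or MR49F replicate 1 or 2, and it was 0.14 without C4-2 replicate 1.

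Of the 5 vesicle, cytoskeletal and other genes, 3 rose and 1 fell in MR49F, while in C4-2 1 fell and 4 did not pass. HERC3, a ubiquitin ligase, was at 258 ± 10.4, 333 ± 6.75 and 126 ± 26.5 CPM, and so rose in MR49F (0.37, adjusted p = 0.00759) and fell in C4-2 (−1.04, adjusted p = 1.03e-07). TPD52, a vesicle traffic protein amplified in prostate tumours, fell in MR49F from 284 ± 8.25 to 173 ± 8.12 CPM (−0.71, adjusted p = 8.47e-08) and was at 301 ± 6.82 in C4-2 (0.09, adjusted p = 0.334). RAB3B, a secretory Rab GTPase, and C1orf116, also called SARG, rose in MR49F by 0.59 and 0.29, from 117 ± 5.13 to 176 ± 7.08 CPM and from 159 ± 9.67 to 195 ± 5.66 CPM. The excess of C1orf116 over C4-2 (0.21, adjusted p = 0.0223) was lost in 5 alternatives (adjusted p 0.0550 to 0.117), among them those without C4-2 replicate 3 or MR49F replicate 1 or 2. MAP7, a microtubule-binding protein, passed in no comparison, with intervals of −0.19 to 0.18 for MR49F against LNCaP and −0.18 to 0.18 for MR49F against C4-2.

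MR49F had the highest mean of the 3 lines for 23 members, C4-2 for 8 and LNCaP for 4. For 17 of the 35 all 3 pairwise tests passed, and for 13 of these every call also held in each alternative other than the test against a 1.5-fold change. FKBP5, PTGER4, MPHOSPH9 and NCAPD3 each lost a call in some alternative, as given above, so their order is less certain. Among the 17, EAF2, FKBP5, LIFR, PMEPA1, PTGER4, SGK1 and TMPRSS2 ran MR49F, C4-2, LNCaP from highest to lowest, and ADAM7, HERC3, HOMER2, MPHOSPH9 and SLC45A3 ran MR49F, LNCaP, C4-2. GNMT, PLPP1 and TRPM8 ran C4-2, LNCaP, MR49F, with NDRG1 in the order C4-2, MR49F, LNCaP and NCAPD3 in the order LNCaP, MR49F, C4-2. The members that rank highest also differ between lines. Per kilobase of exon, the leading genes were PLPP1 (114 ± 5.23 CPM per kb), UAP1 (106 ± 3.22) and SLC45A3 (93.5 ± 3.44) in LNCaP. In MR49F they were SLC45A3 (200.3 ± 14.3), ACSL3 (159 ± 14.8) and PMEPA1 (130.4 ± 3.17), and in C4-2 PLPP1 (452 ± 70.2), SORD (98.7 ± 7.77) and ACSL3 (66.3 ± 1.63).

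Split by mean level over the 9 libraries, the 25 members of at least 100 CPM gave 19 higher and 4 lower in MR49F, 10 higher and 8 lower in C4-2, and 18 higher and 3 lower in MR49F against C4-2. The mean includes the line in which a gene is high, so the change itself helps to place a gene: TRPM8, LIFR and CAMKK2 reach 100 CPM in 1 line alone, and the classes are a description only. The 5 members of 10 to 100 CPM gave 4 higher and none lower in MR49F, 3 and none in C4-2, and 2 and 1 in the direct comparison. The 5 under 10 CPM gave 3 and 1, 4 and none, and 3 and 2. Of all tested genes, 24.1% were higher and 22.8% lower in MR49F, 26.2% and 23.5% in C4-2, and 29.9% and 31.1% in the direct comparison.

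Tested genes within 1 Mb of each member were set beside it, and around some members they moved together. In C4-2 against LNCaP, 26.2% of all tested genes were higher and 23.5% lower. There, 32 of 39 tested genes within 1 Mb of GNMT were higher and none was lower (median log2 fold change 0.76), beside 2.10 for GNMT itself. For TRPM8, 6 of 10 neighbours were higher and none lower (median 0.65, against 4.26 for the gene). All 7 neighbours of ABCC4 were higher (median 0.61), while 5 of 6 neighbours of MED28 and 6 of 12 of HERC3 were lower (medians −0.52 and −0.37). The neighbours of ADAM7 and PLPP1 did not follow them, with medians of 0.16 and 0.03 against −5.09 and 1.99. The neighbours of TMPRSS2 had a median of −0.18 in MR49F against LNCaP, beside its 3.05. Whether a member and its neighbours differ for a shared reason was not tested.

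**Figure D4:**
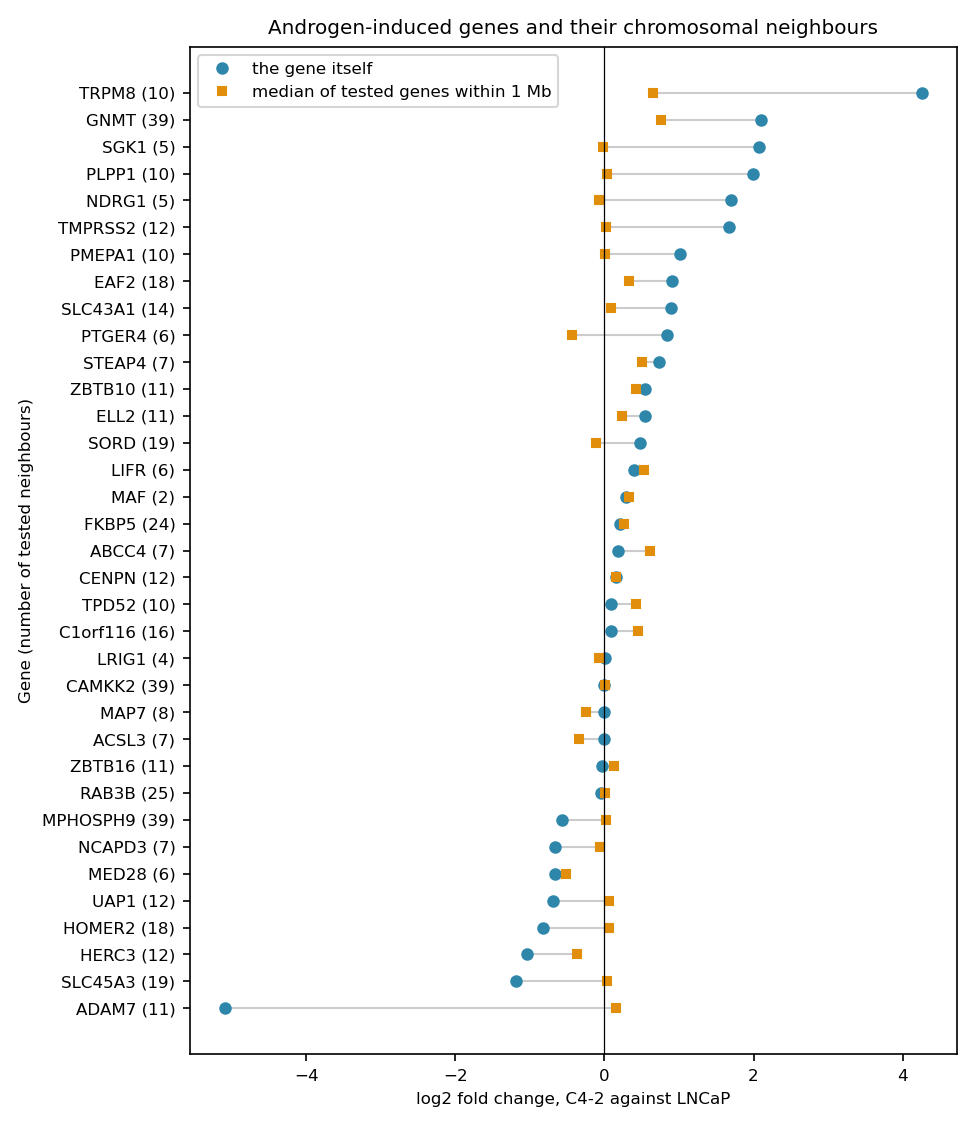
Log2 fold change in C4-2 against LNCaP (horizontal axis) of each member (circle) and the median of the tested genes within 1 Mb of it (square). Each row is a member, with its number of tested neighbours in brackets. The neighbours of GNMT, TRPM8 and ABCC4 have positive medians of 0.76, 0.65 and 0.61, and ADAM7 lies far to the left of its neighbours' median of 0.16.

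Other androgen-responsive genes give the setting of these values. NR3C1 encodes the glucocorticoid receptor, which can act on some of the same targets. Its summed counts were 9, 3 and 10 in LNCaP, MR49F and C4-2, and it did not pass the count filter. Among 20 kallikreins and other androgen-induced genes, 9 were higher and 5 lower in MR49F (median 0.22), 12 and 3 in C4-2 (median 0.45), and 7 and 11 in the direct comparison (median −0.32), where the 35 members had a median of 0.65. The shares of all tested genes were 24.1% higher and 22.8% lower in MR49F, 26.2% and 23.5% in C4-2, and 29.9% and 31.1% in the direct comparison. KLK3, the gene of prostate-specific antigen, was higher by 0.35 in MR49F (adjusted p = 0.00127) and by 0.71 in C4-2 (adjusted p = 3.12e-07), with a direct difference of −0.36 (adjusted p = 5.40e-04).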

How the data were processed

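Whole-cell RNA was poly(A)-selected and sequenced as paired reads on a HiSeq2500 with a stranded kit, per the labels' protocols. The values are whole-number counts per Ensembl gene, not normalized, as deposited by the authors. Reads were handled with HTSeq 0.6.1, TopHat2, edgeR 3.12.1 and FastQC 0.11.3 on GRCh38.p12, per the submitters' processing notes, which give no order or role. The strand setting of the counting is not given in the sources used here. The 9 columns named for LNCaP, MR49F and C4-2 were used. A further 3 columns match no sample title and were not used.

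Of 57992 entries, 56948 matched a gene symbol and 57388 matched GENCODE 29, which gave coordinates and exon lengths. The main test was edgeR 4.0.16 (R 4.3.3; quasi-likelihood, robust, TMM scaling, filterByExpr by line) with 1 mean per line and 6 residual degrees of freedom. It was also run on simulated counts with known changes in a small share of the genes, of any level. There it called 59.7 to 61.2% of 1.5-fold changes, 86.6 to 94.0% of 2-fold changes and 10 to 16 unchanged genes per comparison. The real comparisons called 47.0 to 61.0% of tested genes, far more than were changed there. The simulated shares and numbers therefore do not carry over to them. A gene that did not pass can still differ. The common biological coefficient of variation was 0.0817. The fit gave each gene 1 spread shared by the lines, although replicates differed more in some lines than in others. Chi-square per degree of freedom between replicates was 1.49 to 1.80 in LNCaP, 2.07 to 5.56 in MR49F and 5.84 to 24.0 in C4-2. This measure also grows with depth, and C4-2 replicate 1 was the deepest. Adjusted p under 0.05 over 15407 genes counted as changed. CPM values use TMM-scaled library sizes and are means ± SD over 3 libraries. Standard errors were taken from F (the size of the log2 fold change over the root of F). Neighbours are tested genes within 1 Mb. Alternatives were DESeq2 1.42.0, limma 3.58.1 (voom), RLE scaling, other count filters, a fit of 6 libraries, testing against a 1.5-fold change, a replicate block, C4-2 replicate 1 thinned to the others' depth, and each library left out.

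The series' design text calls the replicates biological without saying how the cultures were separated, so p-values measure the spread between these libraries. The members, roles and other lists were chosen with earlier results of these data known. Values in every library are given for the 6 members with the largest change past the threshold in each comparison. They are also given for ACSL3, which is not among these. From the other lists NR3C1 and KLK3 are named, and some results of those lists are not reported here.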

Additional observations from a re-analysis of the deposited data

Results flagged for a closer look

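For 8 genes edgeR called one derivative higher and the other lower than LNCaP. That choice fixes the sign of the difference between the derivatives, so the direct values are a description and add no support. Higher in MR49F and lower in C4-2 were ADAM7 (direct log2 difference 6.77), SLC45A3 (2.29), HOMER2 (1.91), HERC3 (1.41) and MPHOSPH9 (0.89). Lower in MR49F and higher in C4-2 were TRPM8 (−6.22), GNMT (−3.21) and PLPP1 (−2.41). Both comparisons with LNCaP share its 3 libraries.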

How the results depend on the processing

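Against LNCaP, MR49F gave 26 members higher and 5 lower, C4-2 17 and 8, and MR49F against C4-2 23 and 6. Testing against a 1.5-fold change lowered the first 2 comparisons to 15 and 1, and to 9 and 4, and the direct one to 16 and 6, since it asks for a larger change. DESeq2 gave 26 and 5, 14 and 8, and 23 and 6. Leaving out each library gave ranges of 24 to 26 and 5 to 6, 14 to 17 and 8 to 8, and 21 to 23 and 6 to 7. Replicate numbers did not pair the samples (correlations of same-numbered deviations −0.0832 to 0.0562), and a replicate block gave 26 and 5, 16 and 8, and 23 and 7. Apart from the 1.5-fold test, 29 of 31, 22 of 25 and 27 of 29 calls held in every alternative run. The sign changed only for values near 0 that passed in no fit where it changed. In C4-2 against LNCaP these were LRIG1 (−0.0020 in DESeq2 and with the 1 CPM filter, leaving out libraries −0.040 to 0.043), CAMKK2 (DESeq2 −0.0082, voom −0.0024, RLE −0.0013, 1 CPM filter −0.0074, thinned −0.0037, leaving out libraries −0.041 to 0.025), ACSL3 (−0.036 to 0.011), ZBTB16 (thinned 0.025, leaving out libraries −0.21 to 0.23), RAB3B (−0.18 to 0.094) and MAP7 (−0.046 to 0.023). In MR49F against LNCaP they were MED28 (−0.068 to 0.011) and MAP7 (−0.076 to 0.068). In MR49F against C4-2 they were SORD (no filter −0.00028, leaving out libraries −0.020 to 0.095) and MAP7 (no filter −0.027, fit of 6 libraries −0.011, thinned −0.0027, leaving out libraries −0.058 to 0.079). The sum of all members without PLPP1 and TRPM8, an alternative chosen after seeing the data, was 4618, 8626 and 4603 CPM for LNCaP, MR49F and C4-2, against 4864, 8802 and 5829 with them. Depth limits SGK1, PTGER4, MAF, STEAP4 and GNMT most, which lie under 10 CPM on average. For the other changes the cause was not tested.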
